A study of Mus musculus with 9 samples.

Results

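The ADAM and ADAMTS metalloproteases were followed in preparations labelled as spermatogonia, from adult Balb/C mice fed a vitamin A-deficient (VAD) diet. Members were chosen by name as the probe sets (groups of short probes for a transcript on the Affymetrix array) whose single platform gene symbol was Adam or Adamts plus a number and at most 1 letter, with no use of their measured values. The rule gave 74 of 45101 probe sets, for 43 genes. The 9 arrays fall into 3 groups of 3, spermatogonia after 18 weeks on the VAD diet, spermatogonia after 25 weeks on the VAD diet, and control spermatogonia from mice on a normal diet. The age of the control mice relative to the diet groups is not given in the sources used here. Each preparation pooled the testes of 2 mice, dispersed them with enzymes, plated the cells overnight and separated germ cells in suspension by size on an albumin gradient. The labels state a purity above 90% by microscopy, yet markers of spermatocytes and spermatids were brighter in sum than those of spermatogonia, as given below. From each preparation, 100 ng of total RNA went through 2 cycles of amplification, which can distort the levels of rare transcripts. No label says that replicates came from separate mice or days, so the p-values measure the spread between these preparations, which may be technical.

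ADAM proteins are membrane proteins with a disintegrin domain and a metalloprotease domain, and several have lost the active site of the protease. In mammals a large branch of the family is restricted to the male germ line, where its proteins form complexes on the sperm surface that serve migration through the oviduct and binding to the egg. Other members, such as ADAM10 and ADAM17, are found in most tissues and cut the outer part of receptors and ligands from the cell surface. The ADAMTS branch is secreted and acts on the extracellular matrix. Spermatogonia enter differentiation and meiosis in response to retinoic acid, which is made from vitamin A.

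The arrays carried differences unrelated to the family. VAD 25-week replicate 3 and control replicate 3 had trimmed mean signals of 23.3 and 23, against 55.6 to 186 on the other 7 arrays, and after normalization they correlated at 0.889 with each other but at 0.776 to 0.809 with the others, which correlated at 0.935 to 0.981 among themselves. The model therefore held a term for this dim pair, and results are also given without the pair. On the deposited scale, VAD 25-week replicates 1 and 2 were the brightest arrays, and their bacterial poly-A control probes were also bright. Of the markers on the array, all 7 for spermatocytes and all 10 for spermatids passed the filter on low values, as did 4 of 7 for undifferentiated spermatogonia (Lin28a, Ret and Sall4 did not) and 11 of 13 for Sertoli cells (Amh and Sox9 did not). Summed Sertoli marker signal was 507.7 to 1510 at 18 weeks and 600 to 1273 at 25 weeks, against 157.6 to 209 in control. By the threshold defined below, 5 and 9 of the 11 markers rose at the 2 times. Of all probe sets, 1.46% and 14.8% were called in either direction. With group as the sole term in the model, 0 of all probe sets were called at either time. In these bulk samples, fewer cells of a type and less RNA per cell cannot be told apart.

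Levels below are log2(signal + 3.259) after quantile normalization, differences are VAD minus control in limma's model on that log2 scale, and a probe set is called at a Benjamini-Hochberg adjusted p under 0.05 over all probe sets tested. Fold changes of low signals are understated on this scale. The filter, a mean over all arrays of at least 3.39, kept 40 of the 74 probe sets (54.1%) and 31 of the 43 genes, against 60% of all probe sets. Its effect split the family by known site of expression. All 17 probe sets of the 15 testis ADAM genes were kept, as were 15 of 26 for the 11 widely expressed ADAM genes (57.7%), 8 of 28 for the 15 ADAMTS genes (28.6%) and 0 of 3 for the epididymal gene Adam7 and the lymphocyte gene Adam28. Just outside the limit lay probe sets of Adamts15 (3.35), Adamts7 (3.36) and Adamts16 (3.37), and just inside it probe sets of Adam1b (3.42), Adam1a (3.55) and Adamts3 (3.57). Adam23, whose 3 probe sets all fell below it, was the single widely expressed ADAM gene with none kept. Adamts2 was not analysed here.

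At 25 weeks of VAD, 7 of the 40 kept probe sets were called (17.5%), against a background of 14.8% of the 27022 probe sets tested. Those of Adam9, Adam10, Adam2 and 1 probe set of Adamts9 rose (4 of 40, 10%, against 8.51% of all), and those of Adam1b, Adam3 and Adam15 fell (3 of 40, 7.5%, against 6.29%). These shares lie near the background, so the counts are not a result about the family. With group as the sole term in limma, 0 members were called (smallest adjusted p = 0.223, 7 at an unadjusted p under 0.05), as were 0 of all probe sets (smallest adjusted p = 0.0854, 3211 at an unadjusted p under 0.05). The count of 7 was also sensitive to single arrays. It was 0 without VAD 25-week replicate 2 (6.62% of all probe sets called), 2 without control replicate 1 (7.75%) and 3 without control replicate 2 (9.74%). It was 4 without VAD 25-week replicate 1 (7.32%) or without VAD 25-week replicate 3 (15.3%). The share of all probe sets thus also fell in most of these fits. Without both dim arrays the member count was 6 (15.8% of all probe sets called), of which 5 were among the 7. The other was Adamts1, whose control values were far below the filter limit, so it passed through the diet arrays where it is high and its call supports nothing.

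At 18 weeks of VAD, 0 of the 40 were called, against 1.46% of all probe sets (394). The smallest adjusted p of a member was 0.0849, for Adam33, and 3 had an unadjusted p under 0.05. Under the model with group alone the counts were again 0 called and 3 at an unadjusted p under 0.05, and of all 27022 probe sets 0 were called (smallest adjusted p = 0.244, 1955 at an unadjusted p under 0.05). Between 25 and 18 weeks, 0 members and 0 of all probe sets (0%) were called. With the dim-pair term, 3 members and 3124 of all probe sets had an unadjusted p under 0.05 in that comparison, and with group alone 1 member and 1031 of all did. Both comparisons with control share the same 3 control arrays, so the values at 18 and 25 weeks are set side by side below and their likeness is no result.

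A plain reading of the ranges gave like shares. The 3 VAD 18-week arrays lay wholly above the control arrays for 4 members and wholly below for 3 (17.5% of 40), against 19.3% of all probe sets with no overlap in either direction. At 25 weeks the counts were again 4 and 3 (17.5%), against 16.2%. At both times 1 probe set each of Adam9, Adam10 and Adamts9 stood above control, and 1 each of Adam1b (1432657_at) and Adam33 below. Another Adam1b probe set (1454317_at) stood above control at 18 weeks and overlapped with it at 25 weeks. The remaining Adam1b probe set (1439700_at) and the other kept Adamts9 probe set (1431399_at) overlapped with control at both times.

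The testis ADAM genes as a group moved little. Each gene was taken by its brightest kept probe set, with the probe sets most open to cross-hybridisation used last. Of the 15 genes, 4 differed upward and 11 downward at 18 weeks, with a median difference of -0.17 (range -0.75 to 0.19), and 5 upward and 10 downward at 25 weeks, with a median of -0.05 (range -0.81 to 0.51). For the 10 widely expressed ADAM genes kept, 8 differed upward and 2 downward at 18 weeks (median 0.15, range -1.44 to 1.04), and 5 each way at 25 weeks (median 0.13, range -1.01 to 1.5). The 6 ADAMTS genes kept had medians of 0.05 and 0.22. Over all kept probe sets the median was -0.01 at both times. Called genes numbered 1 higher and 2 lower among the testis genes at 25 weeks, and 2 higher and 1 lower among the widely expressed ones.

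**Figure D1:**
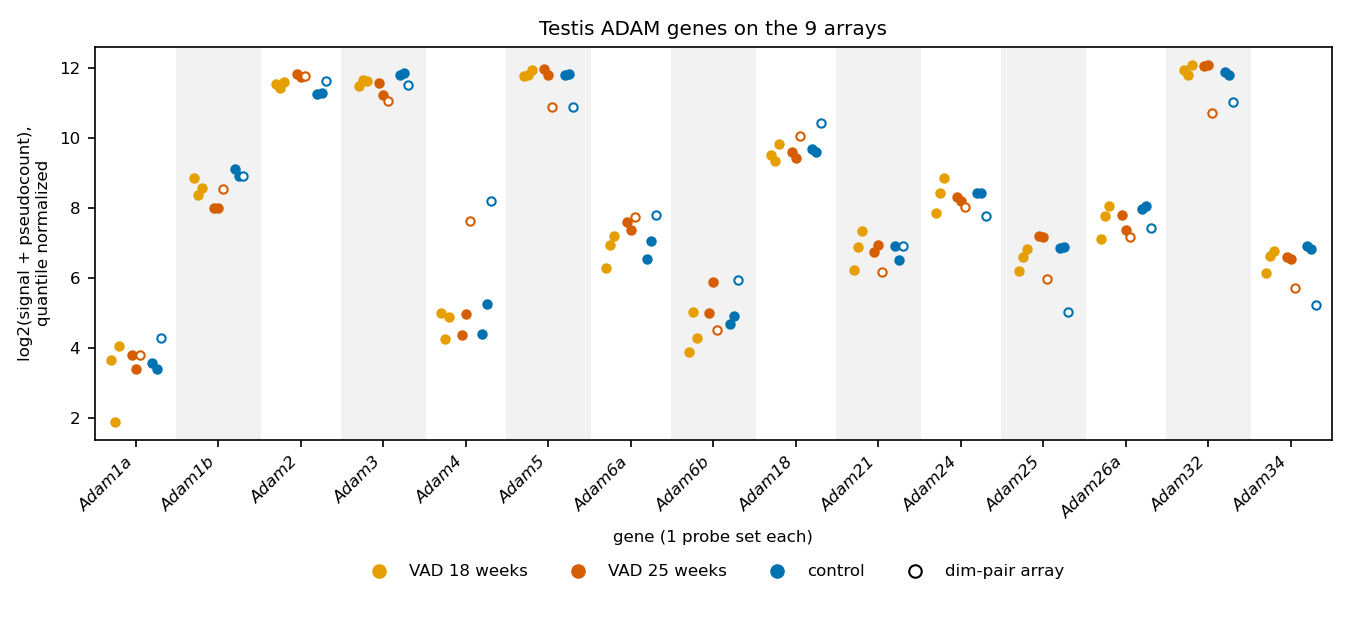
Level of each testis ADAM gene on every array, as log2(signal + 3.259) after quantile normalization on the vertical axis, with VAD 18 weeks, VAD 25 weeks and control from left to right and the dim-pair arrays as open circles. Groups overlap for most genes, while Adam1b at 25 weeks lies below control and Adam2 at 25 weeks above it.

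The direction of a change depended on the scale. On the deposited signals, where the arrays are not brought to one distribution, the median difference of all kept probe sets was 0.92 at 25 weeks and 0.12 at 18 weeks, and the 25-week class medians were 0.73 for testis ADAM, 1.06 for widely expressed ADAM and 1.03 for ADAMTS genes. Set against the 0.92 of all probe sets, the testis genes were below that shift and the other classes above it. At 18 weeks the deposited class medians were -0.17, 0.39 and 0.19. After centring each array on its median the 25-week values were -0.11, 0.22 and 0.18, beside 0.07 for all kept probe sets. Called members at 25 weeks split 4 higher to 3 lower with quantile normalization, 4 to 2 with median centring, and 13 to 0 with the deposited signals, where all called probe sets split 10571 to 7.

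**Figure D2:**
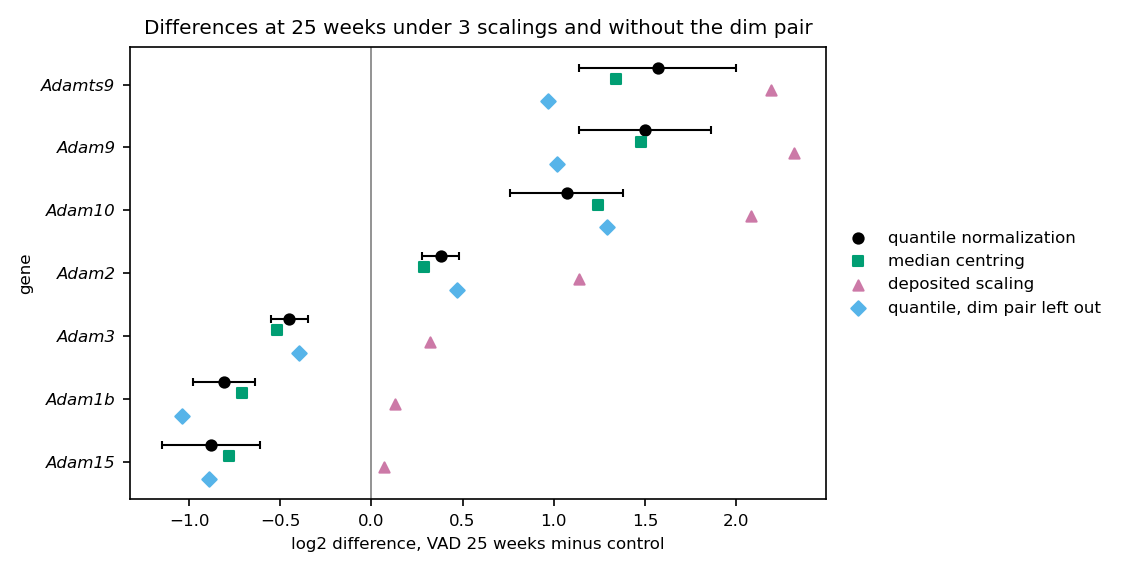
Difference of VAD 25 weeks minus control (log2) for the 7 probe sets called at 25 weeks under 3 scalings (quantile normalization, median centring, deposited signals). A further series gives the quantile-normalized fit without the dim pair. Black bars are the standard error in the quantile-normalized fit of all arrays. The deposited values are shifted upward as a whole, and Adam1b, Adam3 and Adam15 are negative under the normalized scales and positive on the deposited one.

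Adam2 encodes fertilin beta, the partner of the ADAM1 proteins and a component of the sperm surface complexes. Its level was 11.55, 11.44 and 11.59 on the VAD 18-week arrays and 11.83, 11.73 and 11.77 on the VAD 25-week arrays, against 11.25, 11.29 and 11.64 on the control arrays. The 25-week arrays were all above the control arrays, whose highest value came from the dim array, and the 18-week arrays overlapped with control. Adam2 rose by 0.38 ± 0.10 (SE) at 25 weeks (limma adjusted p = 0.0289, 95% interval 0.16 to 0.61), and the 18-week difference was 0.19 ± 0.11 (adjusted p = 0.405, interval -0.04 to 0.43). Within the dim pair the 25-week difference was 0.13 and on the other arrays 0.51. Without the dim pair it was 0.47 (adjusted p = 0.0101), and after median centring 0.29 (adjusted p = 0.219). The call was lost under the model with group alone (adjusted p = 0.406) and without control replicate 1 (0.109), control replicate 2 (0.0954), VAD 25-week replicate 1 (0.121) or VAD 25-week replicate 2 (0.0954).

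Adam1a and Adam1b encode the fertilin alpha proteins. In the mouse, ADAM1A pairs with ADAM2 inside the testicular germ cell and is needed for ADAM3 to reach the sperm surface, whereas ADAM1B pairs with ADAM2 on the sperm itself. The genes are neighbours on chromosome 5. Their RefSeq promoters (GRCm38.p6, 250 bases before to 50 after the annotated start, minus strand) are shown because they are adjacent genes that both encode a fertilin alpha protein. Any bearing of the promoter letters on their levels was not tested. Capitals mark the motif AGGTCA on either strand, the core of the sites that retinoic acid receptors bind, which occurs in 16.3% of all 32851 RefSeq promoter windows of this length. The Adam1b window, chr5:121503386-121503685, holds 2 matches and has a GC content of 51.0%. The Adam1a window, chr5:121521646-121521945, holds none and has a GC content of 39.7%. A match is a description of the letters and not a shown site.
Adam1b: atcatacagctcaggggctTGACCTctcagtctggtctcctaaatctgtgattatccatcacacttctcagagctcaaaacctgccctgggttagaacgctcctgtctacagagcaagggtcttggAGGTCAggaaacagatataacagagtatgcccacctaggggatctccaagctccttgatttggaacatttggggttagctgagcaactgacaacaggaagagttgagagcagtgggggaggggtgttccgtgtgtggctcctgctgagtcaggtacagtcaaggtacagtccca
Adam1a: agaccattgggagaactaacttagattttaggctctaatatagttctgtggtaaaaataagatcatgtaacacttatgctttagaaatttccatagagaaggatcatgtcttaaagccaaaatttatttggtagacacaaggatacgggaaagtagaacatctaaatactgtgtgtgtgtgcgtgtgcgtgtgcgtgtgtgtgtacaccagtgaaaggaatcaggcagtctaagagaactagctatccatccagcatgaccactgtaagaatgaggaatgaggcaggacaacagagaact

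The brightest Adam1b probe set (1432657_at) had levels of 8.85, 8.36 and 8.57 at VAD 18 weeks and 7.99, 7.99 and 8.54 at VAD 25 weeks, against 9.11, 8.91 and 8.91 in control. Every VAD array, at either time, was below every control array. Adam1b fell by 0.81 ± 0.17 at 25 weeks (limma adjusted p = 0.0107), to a mean of 8.17 ± 0.31 (SD, n = 3), against 8.98 ± 0.12 in control. The 18-week difference was -0.31 ± 0.18 (adjusted p = 0.424). Without the dim pair the 25-week difference was -1.04 (adjusted p = 0.00401), and it was -0.38 within the pair. The adjusted p was 0.223 with group alone, 0.055 without control replicate 1 and 0.0531 without VAD 25-week replicate 2, and on the deposited scale the difference was 0.13 (0.792), below the shift of all probe sets. The other Adam1b probe sets did not pass the test, at -0.43 ± 0.19 for 1439700_at (adjusted p = 0.157) and 0.41 ± 0.37 for 1454317_at (0.487), so the probe sets of this gene disagreed in sign.

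For Adam1a the single probe set was close to the filter limit. It read 3.66, 1.90 and 4.07 at VAD 18 weeks and 3.8, 3.41 and 3.8 at VAD 25 weeks, against 3.58, 3.41 and 4.29 in control. Its differences were -0.38 ± 0.55 and -0.09 ± 0.51, with errors too large to show a change of the size seen for Adam1b. Cross-hybridisation between the related Adam1a and Adam1b sequences was not tested.

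Adam3 encodes cyritestin, the sperm protein on which passage into the oviduct and binding to the egg coat depend in mice. Levels were 11.50, 11.65 and 11.62 at VAD 18 weeks and 11.56, 11.22 and 11.07 at VAD 25 weeks, against 11.81, 11.85 and 11.52 in control. The 25-week and control ranges overlapped by VAD 25-week replicate 1 and control replicate 3. Adam3 fell by 0.45 ± 0.10 at 25 weeks (limma adjusted p = 0.0161), and the difference was alike within the dim pair (-0.46) and on the other arrays (-0.44). The 18-week difference was -0.24 ± 0.11 (adjusted p = 0.303). After median centring the 25-week difference was -0.52 (0.0192), and on the deposited scale it was 0.32 (0.454). The adjusted p was 0.385 with group alone, 0.052 without control replicate 1, 0.0598 without control replicate 2 and 0.0838 without VAD 25-week replicate 2.

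**Figure D3:**
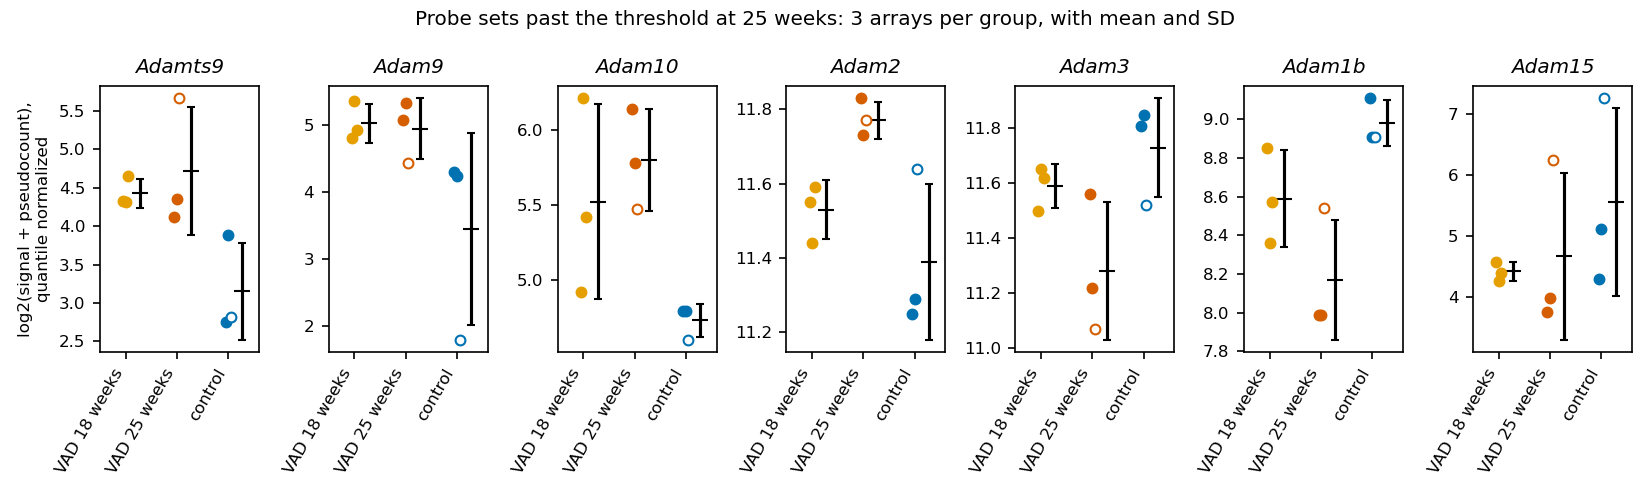
Level, as log2(signal + 3.259) after quantile normalization, of the 7 probe sets called at 25 weeks on every array, with VAD 18 weeks, VAD 25 weeks and control from left to right, bars for the group mean ± SD and open circles for the dim-pair arrays. For Adam9 the dim control array is far below the other control arrays, and for Adam15 both dim arrays are above all others.

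The partners in the sperm surface complex can also be set against each other within an array, which removes a scaling factor common to all its probe sets. The pairs were chosen after their values were seen, so the ratios carry no test. The log2 ratio of the deposited Adam2 signal to the Adam3 signal was 0.06, -0.21 and -0.02 at VAD 18 weeks and 0.17, 0.41 and 0.92 at VAD 25 weeks, against -0.56, -0.55 and 0.16 in control. Its mean was -0.06 ± 0.14 at 18 weeks and 0.50 ± 0.38 at 25 weeks, against -0.32 ± 0.41 in control (SD, n = 3 each). The 25-week and control groups met at the dim control array, whose 0.16 lay just under the lowest 25-week value. For Adam2 over Adam1b the ratios were 2.56, 2.99 and 3.00 at 18 weeks and 3.47, 3.58 and 3.66 at 25 weeks, against 2.15, 2.42 and 3.12 in control. The mean was 3.57 ± 0.10 at 25 weeks and 2.56 ± 0.50 in control, a difference of 1.01, with no overlap between these groups. In both ratios each dim array was the highest of its group, and these means hold no term for the dim pair. Differences of these ratios between groups are unequal changes of a pair of probe sets and say nothing of which one changed.

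**Figure D4:**
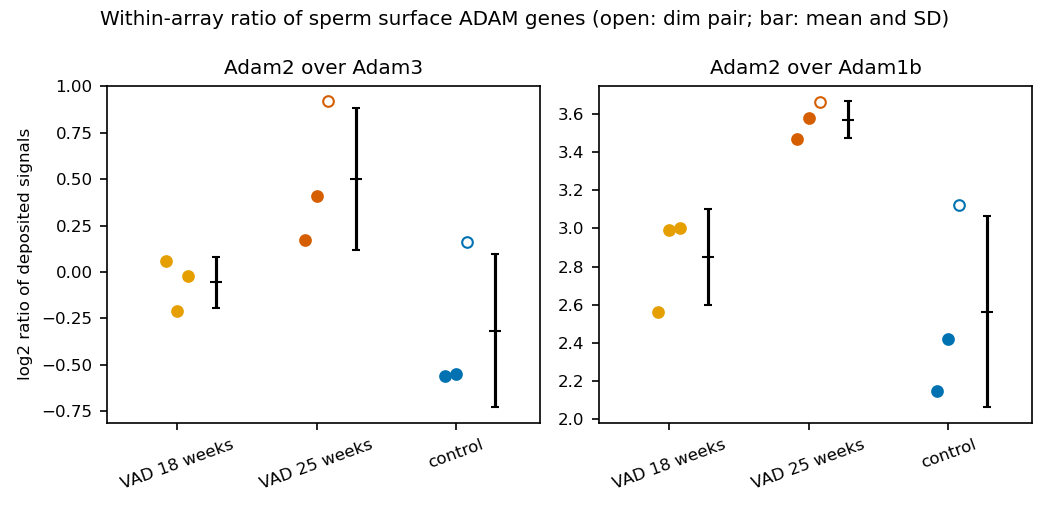
Log2 ratio of deposited signals within each array, for Adam2 over Adam3 and Adam2 over Adam1b, with VAD 18 weeks, VAD 25 weeks and control from left to right and the dim-pair arrays as open circles. All 25-week arrays lie above all control arrays in both ratios, by little for Adam2 over Adam3, and the dim control array is the highest of its group.

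Adam4, Adam5, Adam6a and Adam6b encode further sperm proteins, and in mouse sperm ADAM4, ADAM5 and ADAM6 have been found in complexes with ADAM2 and ADAM3. Adam5 read 11.77, 11.81 and 11.94 at VAD 18 weeks and 11.96, 11.80 and 10.88 at VAD 25 weeks, against 11.80, 11.83 and 10.90 in control. The low values were those of the dim pair, and the differences were 0.01 ± 0.10 (95% interval -0.21 to 0.22) and 0.04 ± 0.09 (-0.16 to 0.24), the narrowest intervals among the genes described here. A change of the size measured for Adam3 lies outside the 25-week interval of Adam5.

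Adam4 read 5.0, 4.26 and 4.90 at VAD 18 weeks and 4.38, 4.98 and 7.63 at VAD 25 weeks, against 4.39, 5.25 and 8.19 in control. Its dim-pair values exceeded the other arrays by 3.18 on average, far above any difference between diets (-0.17 ± 0.32 and -0.28 ± 0.30). Adam6a differed by -0.12 ± 0.27 at 18 weeks and 0.43 ± 0.26 at 25 weeks (adjusted p = 0.287). Adam6b gave the lowest 18-week value of the testis genes, -0.75 ± 0.47 (adjusted p = 0.456), and -0.05 ± 0.44 at 25 weeks. Adam6a and Adam6b are neighbouring, closely related copies, and sharing of signal between their probe sets was not tested.

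Adam18, Adam3, Adam5, Adam32 and Adam9 follow each other as neighbouring protein-coding genes in the RefSeq annotation, with 4 testis genes beside 1 widely expressed one. Adam18, a sperm surface protein, read 9.51, 9.33 and 9.82 at VAD 18 weeks and 9.59, 9.44 and 10.05 at VAD 25 weeks, against 9.68, 9.61 and 10.44 in control. The groups overlapped, with differences of -0.13 ± 0.15 (95% interval -0.45 to 0.19) and -0.21 ± 0.14 (-0.51 to 0.09). Adam32, also a germ-line gene, read 11.95, 11.79 and 12.09 at VAD 18 weeks and 12.07, 12.09 and 10.72 at VAD 25 weeks, against 11.89, 11.80 and 11.03 in control. Its differences were 0.01 ± 0.13 (-0.28 to 0.29) and 0.05 ± 0.12 (-0.22 to 0.32). Thus along this run of neighbours at 25 weeks, Adam3 fell, Adam9 rose, and Adam18, Adam5 and Adam32 did not pass the test.

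Adam24, Adam25, Adam26a and Adam34 encode the testases, a mouse group of germ-line proteases of which ADAM24 has been tied to the block to polyspermy. Adam24 read 7.86, 8.44 and 8.85 at VAD 18 weeks and 8.32, 8.21 and 8.02 at VAD 25 weeks, against 8.43, 8.44 and 7.77 in control. The groups overlapped, with differences of 0.02 ± 0.23 (95% interval -0.48 to 0.52) and -0.03 ± 0.22 (-0.50 to 0.44). Adam25 had the highest 25-week difference of the testis genes, 0.51 ± 0.21 (adjusted p = 0.134), and -0.23 ± 0.23 at 18 weeks. Between the 2 diet times it differed by 0.74 ± 0.23, with the smallest adjusted p of any member in that comparison (0.243). Adam26a differed by -0.34 ± 0.24 and -0.38 ± 0.23, and Adam34 by -0.23 ± 0.24 and -0.04 ± 0.23. Adam21, expressed in testis and also in brain, differed by -0.04 ± 0.30 and -0.17 ± 0.28. The testases are close paralogs, so their probe sets may share signal.

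Among the widely expressed members, Adam9 encodes a sheddase of the cell surface. It read 4.81, 5.36 and 4.93 at VAD 18 weeks and 5.08, 5.33 and 4.44 at VAD 25 weeks, against 4.30, 4.25 and 1.79 in control. All arrays of both diet groups were above all control arrays, and the dim control array was far below the other 2. Adam9 rose by 1.5 ± 0.36 at 25 weeks (limma adjusted p = 0.0175), and the 18-week difference was 1.04 ± 0.38 (adjusted p = 0.2). The deposited signal on that array was 0.17, below the pseudocount, so the pseudocount sets its level and with it the size of the difference, which was 2.02 with a pseudocount of 1 and 0.8 with a pseudocount of 16. Between the means of the 25-week and control arrays outside the dim pair, the difference was 0.93. In a limma fit without the pair it was 1.02 (adjusted p = 0.0385). The adjusted p was 0.393 with group alone, and 0.0532 both without VAD 25-week replicate 2 and without VAD 25-week replicate 3.

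Adam10 encodes the sheddase that cuts Notch receptors and cadherins. Its kept probe set (1428103_at) read 4.92, 6.21 and 5.42 at VAD 18 weeks and 6.14, 5.78 and 5.47 at VAD 25 weeks, against 4.79, 4.79 and 4.60 in control. Control arrays lay close together and under every array of either diet group. Adam10 rose by 1.07 ± 0.31 at 25 weeks (limma adjusted p = 0.0375), with 0.87 within the dim pair and 1.17 on the other arrays. The 18-week difference was 0.68 ± 0.33 (adjusted p = 0.325). The call was lost with group alone (0.293) and without control replicate 1 (0.104), control replicate 2 (0.0966), VAD 18-week replicate 3 (0.055), VAD 25-week replicate 1 (0.142) or VAD 25-week replicate 2 (0.0872). The gene's other 3 probe sets fell below the filter, and in a fit with no filter their 25-week differences were 0.00, -0.59 and -0.20, none called.

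**Figure D5:**
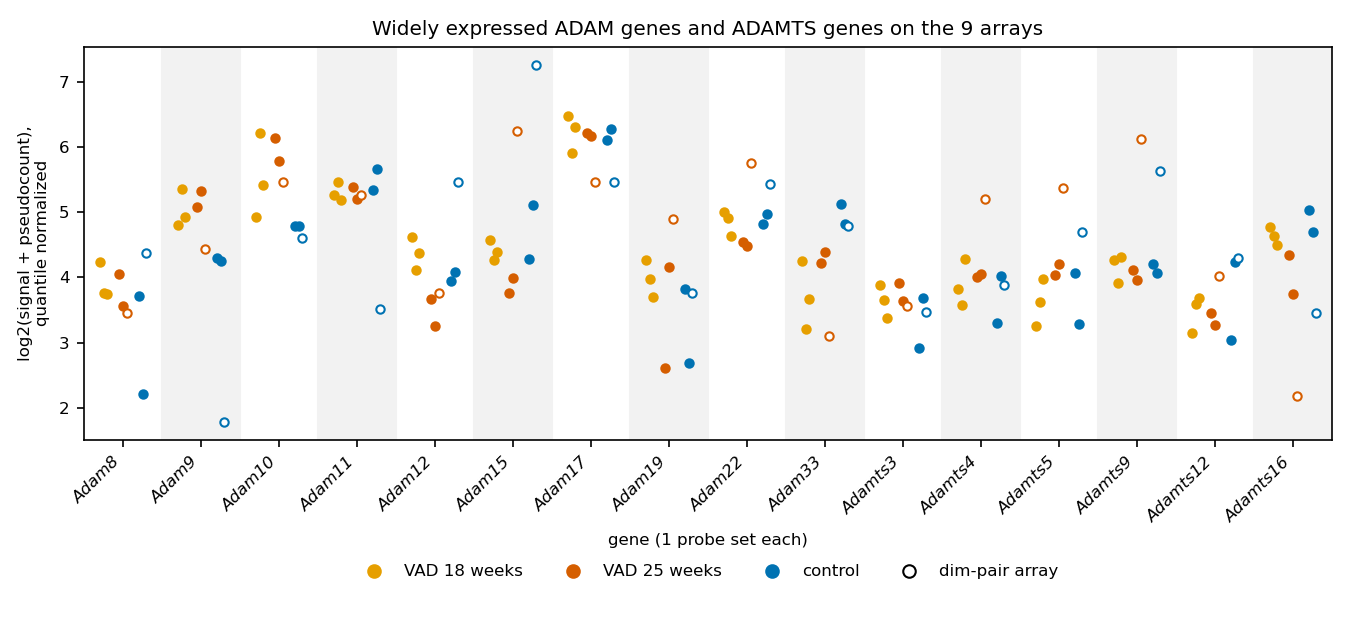
Level of each kept widely expressed ADAM gene, followed by each kept ADAMTS gene, on every array. The vertical axis is log2(signal + 3.259) after quantile normalization. VAD 18 weeks, VAD 25 weeks and control run from left to right, and the dim-pair arrays are open circles. Adam9 and Adam10 lie above control on all diet arrays and Adam33 below, and Adam15 is highest on both dim arrays.

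Markers of other cell types differed among themselves in how their signal changed. Beside the Sertoli sums given above, the 5 leukocyte markers kept of 7 (Cd68 and Ptprc were below the filter) summed to 80.95 to 138.4 at 18 weeks and 209.8 to 258.9 at 25 weeks, against 56.28 to 98.32 in control, and all 5 rose at 25 weeks and 0 at 18 weeks. The 4 Leydig cell markers summed to 119 to 530.2 and 271.2 to 301.2, against 32.36 to 131.6 in control, with 0 and 1 called higher. The 4 endothelial and fibroblast markers kept of 7 summed to 46.62 to 65.07 and 80.45 to 124.5, against 74.33 to 81.98 in control. The 3 peritubular myoid markers kept of 5 summed to 102.1 to 306.2 and 178.5 to 365.6, against 101.3 to 238.1 in control. In both lists 0 markers were called at either time. Their median differences were -0.48 and 0.37, and -0.12 and 0.89. The part of these other cells in the differences of Adam9, Adam10 and Adamts9 was not tested. For the genes of the germ line, the 10 spermatid markers summed to 7940 to 12920 at 18 weeks and 4348 to 15870 at 25 weeks, against 6444 to 16420 in control, and 3 fell at 25 weeks. The 7 spermatocyte markers summed to 25590 to 26030 and 19170 to 22970, against 19470 to 25610 in control, and at 25 weeks 2 rose and 2 fell. The 4 undifferentiated spermatogonia markers kept of 7 summed to 504.8 to 621.9 and 617.4 to 723.5, against 303.5 to 348.6, with 1 higher at each time. The 6 markers of differentiating spermatogonia summed to 1209 to 1270 and 563 to 839.1, against 805.2 to 1732. At 25 weeks 2 of them rose, Kit among them, and 1 fell. Sums of different probe sets do not measure cell shares. Beside these marker counts, 1.46% of all probe sets were called at 18 weeks and 14.8% at 25 weeks. With group as the sole term, 0 of all probe sets were called at either time. The part of germ cell stages in the levels of the members, and in the differences of Adam2, Adam3 and Adam1b, was likewise not tested.

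The promoter of Adam10 is shown because it is that of the widely expressed sheddase whose 3 control arrays lay closest together. Capitals mark the GC box GGGCGG on either strand, which 35.7% of all RefSeq promoter windows hold. The window, chr9:70678732-70679031 on the plus strand of GRCm38.p6, holds 3 matches, 2 of which overlap, and its GC content is 73.3%.
Adam10: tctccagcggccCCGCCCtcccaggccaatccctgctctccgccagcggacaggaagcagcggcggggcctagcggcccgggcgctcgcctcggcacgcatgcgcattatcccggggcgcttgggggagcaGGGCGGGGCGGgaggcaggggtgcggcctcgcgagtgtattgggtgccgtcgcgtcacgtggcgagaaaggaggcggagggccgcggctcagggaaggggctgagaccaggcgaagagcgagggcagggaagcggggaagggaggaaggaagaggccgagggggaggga

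Adam17 encodes the enzyme that releases tumour necrosis factor and also cuts KIT. The brightest of its 3 kept probe sets read 6.48, 5.91 and 6.31 at VAD 18 weeks and 6.21, 6.17 and 5.47 at VAD 25 weeks, against 6.11, 6.28 and 5.46 in control. The groups overlapped throughout, and the differences were 0.04 ± 0.21 (95% interval -0.43 to 0.51) and 0.00 ± 0.20 (-0.44 to 0.44). The other probe sets differed by 0.40 ± 0.36 and -0.05 ± 0.28 at 25 weeks. On the deposited scale the 25-week difference was 1.05 and was called, close to the shift of all probe sets.

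Adam15 encodes a membrane protease with an integrin-binding disintegrin domain. Its kept probe set with the lower risk of cross-hybridisation (1454206_a_at) read 4.58, 4.27 and 4.39 at VAD 18 weeks and 3.76, 3.99 and 6.25 at VAD 25 weeks, against 4.29, 5.11 and 7.26 in control. Both dim arrays were the highest, on average 2.41 above the other arrays, and the ranges overlapped. Adam15 fell by 0.88 ± 0.27 at 25 weeks (limma adjusted p = 0.0484), and the 18-week difference was -0.32 ± 0.29 (adjusted p = 0.622). The call was the least stable of the 7. It was lost with group alone (0.753), without the dim pair (-0.89, adjusted p = 0.125), after median centring (-0.78, 0.0848) and without any single array other than control replicate 1 (adjusted p up to 0.165, without control replicate 2). On the deposited scale the difference was 0.07 (0.9), and the other kept probe set gave -0.38 ± 0.28 (0.388).

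Adam33, a widely expressed member, read 4.25, 3.21 and 3.67 at VAD 18 weeks and 4.22, 4.39 and 3.10 at VAD 25 weeks, against 5.12, 4.82 and 4.79 in control. All diet arrays were below all control arrays, yet the differences, -1.44 ± 0.37 at 18 weeks and -1.01 ± 0.35 at 25 weeks, did not pass the test (limma adjusted p = 0.0849 and 0.0782). Adam12, which encodes meltrin alpha, read 4.62, 4.11 and 4.38 at VAD 18 weeks and 3.67, 3.26 and 3.77 at VAD 25 weeks, against 3.95, 4.08 and 5.47 in control. The 25-week arrays were below both other groups, with -0.93 ± 0.33 against control (adjusted p = 0.0805) and -1.10 ± 0.35 against 18 weeks (0.258), and the 18-week difference was 0.17 ± 0.35. Adam19, which encodes meltrin beta, differed by 0.90 ± 0.50 and 0.47 ± 0.47, and Adam8, known from leukocytes, by 0.66 ± 0.51 and 0.26 ± 0.48. Adam11 and Adam22, whose proteins lack protease activity and act as receptors in the nervous system, differed by 0.13 ± 0.37 and 0.44 ± 0.35, and by 0.08 ± 0.26 and -0.15 ± 0.25. None of these passed the test.

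Of the ADAMTS genes, Adamts9 encodes a secreted protease that cuts the proteoglycans versican and aggrecan. One kept probe set (1437785_at) read 4.33, 4.31 and 4.65 at VAD 18 weeks and 4.12, 4.36 and 5.67 at VAD 25 weeks, against 2.75, 3.88 and 2.81 in control. All diet arrays were above all control arrays. Its control mean of 3.15 lay under the filter limit, so it was kept through the diet groups where it is high, and with no filter its adjusted p was 0.0534. It is 1 of 3 kept probe sets with a control mean below the limit, beside those of Adamts3 and Adam1b (1454317_at), and the single one of them called. This probe set rose by 1.57 ± 0.43 at 25 weeks (limma adjusted p = 0.0319), and the 18-week difference was 1.44 ± 0.46 (adjusted p = 0.149). The size depended on the pseudocount, at 1.91 with a pseudocount of 1 and 0.88 with a pseudocount of 16. The dim pair differed by 2.86 and the other arrays by 0.93, and without the pair the difference was 0.97 (adjusted p = 0.147). The call was lost with group alone (0.248) and without control replicate 1 (1.44, adjusted p = 0.101), control replicate 3 (0.95, 0.129), VAD 25-week replicate 2 (1.65, 0.0729) or VAD 25-week replicate 3 (0.95, 0.162). The other kept probe set (1431399_at), which represents the gene in the class medians, read 4.27, 3.92 and 4.32 at VAD 18 weeks and 4.11, 3.96 and 6.12 at VAD 25 weeks, against 4.21, 4.07 and 5.63 in control, a 25-week difference of 0.09 ± 0.27 (adjusted p = 0.849). The probe sets of Adamts9 thus disagreed.

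The Adamts9 promoter window, chr6:92943485-92943784 on the minus strand of GRCm38.p6, is shown beside that of Adam10 as the other member called higher at 25 weeks with a sequence at hand. It holds 1 GC box, in capitals, and has a GC content of 70.0%.
Adamts9: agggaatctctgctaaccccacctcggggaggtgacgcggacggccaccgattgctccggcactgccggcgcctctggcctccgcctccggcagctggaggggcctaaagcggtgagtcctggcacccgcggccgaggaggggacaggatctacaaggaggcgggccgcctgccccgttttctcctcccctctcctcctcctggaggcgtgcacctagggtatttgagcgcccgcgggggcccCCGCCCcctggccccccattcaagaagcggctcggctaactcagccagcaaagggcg

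Adamts16 had the lowest 25-week difference of its class. It read 4.77, 4.63 and 4.50 at VAD 18 weeks and 4.35, 3.75 and 2.19 at VAD 25 weeks, against 5.04, 4.69 and 3.46 in control, with differences of -0.31 ± 0.32 and -0.96 ± 0.30 (limma adjusted p = 0.673 and 0.052). Adamts4, an aggrecanase, had the highest differences at both times among the probe sets that represent their gene, 0.39 ± 0.37 and 0.68 ± 0.35 (adjusted p = 0.216 at 25 weeks). Adamts5, also an aggrecanase, read 3.26, 3.62 and 3.97 at VAD 18 weeks and 4.04, 4.21 and 5.37 at VAD 25 weeks, against 4.07, 3.28 and 4.69 in control. The groups overlapped, with differences of -0.02 ± 0.35 and 0.53 ± 0.33 (adjusted p = 0.312 at 25 weeks), and the other kept probe set gave -0.56 ± 0.32 and -0.06 ± 0.30. Below the filter, 1422561_at read 3.55, 3.96 and 2.15 at 18 weeks and 4.4, 4.68 and 3.45 at 25 weeks, against 2.17, 3.15 and 2.13 in control. Its 25-week arrays were thus all above control. With no filter it differed by 0.47 ± 0.52 and 1.69 ± 0.49 (limma adjusted p = 0.773 and 0.059), and 1456969_at by 0.12 ± 0.23 and 0.01 ± 0.22. Adamts3, a procollagen peptidase, and Adamts12 differed by 0.28 ± 0.38 and 0.35 ± 0.36, and by -0.17 ± 0.41 and -0.27 ± 0.38.

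Adamts1, an ovarian and vascular versicanase next to Adamts5 in the annotation, fell below the filter. It read 3.85, 3.67 and 3.57 at VAD 18 weeks and 4.15, 4.39 and 2.58 at VAD 25 weeks, against 2.29, 2.28 and 2.50 in control. All diet arrays were above all control arrays. In a fit with no filter its differences were 1.09 ± 0.45 and 1.35 ± 0.43 (limma adjusted p = 0.341 and 0.0797).

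Promoter windows were at hand for 20 of the 43 genes, in 22 windows. GC content was 36.0% to 51.0% (median 41.7%) in the 7 windows of testis ADAM genes, 49.3% to 73.3% (median 65.3%) in the 9 windows of 7 widely expressed ADAM genes and 62.0% to 77.3% (median 68.0%) in the 6 windows of ADAMTS genes, beside a median of 52.7% over all 32851 windows. The GC box occurred in 0 of 7, 5 of 9 and 5 of 6 of them. AGGTCA occurred in 3, 3 and 0. The cyclic AMP response element TGACGTCA, found in 1.79% of all windows on either strand, occurred in 0 of the 22, so it overlapped no other match. Absence from these windows says only that the letters are not there.

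The factors that mature ADAM proteins or place them on sperm were represented by 19 genes, all kept. Of these, 1 rose at 18 weeks (5.26%, against 1.46% of all probe sets), and at 25 weeks 1 rose and 4 fell (26.3%, against 14.8% of all), with medians of -0.09 and 0.01. With group alone none of the calls in these lists stood, at either time, since that model called 0 of all probe sets. Tex101, a membrane-anchored germ cell protein that mouse sperm need for ADAM3 to be in place, rose by 1.42 ± 0.15 at 18 weeks (limma adjusted p = 0.0027) and by 1.25 ± 0.14 at 25 weeks (0.000611). Its adjusted p was 0.346 and 0.272 with group alone, and 0.207 at 18 weeks on the deposited scale. Its direction was opposite to that of Adam3 at 25 weeks. At 25 weeks Lypd4 fell by 0.79 ± 0.12 (adjusted p = 0.00206), Clgn, the chaperone calmegin of the fertilin proteins, by 0.48 ± 0.13 (0.0297), Pcsk4, a sperm proprotein convertase, by 0.72 ± 0.20 (0.0319), and Cmtm2b by 0.39 ± 0.11 (0.0341). On the deposited scale these 4 differences were positive, at 0.09, 0.42, 0.26 and 0.34, all below the shift of all probe sets. The calls of Clgn (0.119) and Pcsk4 (0.0722) were also lost after median centring.

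Regulators of the ADAM10 and ADAM17 sheddases (6 of 9 genes on the array kept) had 0 called in either direction at either time, with medians of 0.02 and -0.17. Of the inhibitors of metalloproteases (6 of 7 kept), Reck, a membrane-anchored inhibitor, rose at both times, by 1.13 ± 0.21 (limma adjusted p = 0.029, 0.387 on the deposited scale) and 1.61 ± 0.20 (0.000878), and the other 5 did not pass the test. That is 16.7% of the 6 at each time, against 1.46% and 14.8% of all probe sets. Of the substrates of ADAM10 and ADAM17 (14 of 16 kept), 0 were called at 18 weeks, and at 25 weeks 2 rose and 1 fell (21.4%, against 14.8% of all). Kit, the receptor that marks differentiating spermatogonia, rose by 1.34 ± 0.32 (limma adjusted p = 0.0188), and Notch2 by 0.81 ± 0.25 (0.05, just under the threshold). Cdh2, N-cadherin, fell by 0.75 ± 0.17 (0.0155). The control mean of Kit, 3.01, lay under the filter limit. It was thus kept through the diet groups where it is high, and its call supports nothing. Without the dim pair the calls of Notch2 (0.121) and Cdh2 (0.0505) were lost. On the deposited scale the Cdh2 difference was 0.23, and its call was also lost after median centring (0.0737). The list medians were -0.35 and -0.22, opposite in sign to those 2 rises. Of the ADAMTS-like proteins and substrates (8 of 12 kept), 0 were called at either time, with medians of -0.21 and -0.15.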

How the data were processed

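The authors deposited 1 linear MAS5 intensity for each probe set and array, per the submitters' processing notes. Neither the MAS5 version nor its scaling target is given in the sources used here, and no detection call was used. The rule for members used names alone and no measured values. Earlier results of these data were known when members, lists, model and alternatives were chosen, so these choices cannot be called independent of the data.

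Intensities, as deposited by the authors, were put on the scale log2(signal + 3.259), with the 25th percentile of all signals as the pseudocount, and quantile normalized over all 45101 probe sets. The 64 control probe sets were dropped, and other probe sets whose mean reached the 40th percentile were tested. Per the platform table, 34945 probe sets have a single symbol, and all 43 member symbols are in the RefSeq table of GRCm38.p6. limma 3.58.1 in R 4.3.3 (eBayes with a variance trend) fitted group plus a term for the dim pair (trimmed mean, 2% from each end, under 0.5 of the median array) to all 9 arrays, with 5 residual degrees of freedom. The number of arrays limits the precision. The script was tested on simulated data. Values on every array are given for a fixed set of genes and for called genes, with the 3 highest and lowest differences of each class, and up to 4 genes by smallest p of other lists. Alternatives changed the model, scaling, pseudocount, filter, weights and arrays used. Same-numbered replicates were not paired (3 of 9 same-numbered pairs correlated over 0.1).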

Additional observations from a re-analysis of the deposited data

Results flagged for a closer look

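Outside the main measurement, the bacterial poly-A control probe sets, which report spiked RNA and not mouse genes, had a mean deposited signal of 282 on VAD 25-week replicate 1 and 341 on VAD 25-week replicate 2, against 5.94 on VAD 25-week replicate 3, 8.72 to 10.4 at VAD 18 weeks and 5.59 to 9.62 in control. Without these arrays the 25-week group holds 1 array, VAD 25-week replicate 3, itself one of the dim pair, whose spread is then assumed to be that of the other groups. The 25-week values of such a fit rest mainly on 1 dim array against the other and are no check of the calls.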

How the results depend on the processing

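The 7 members called at 25 weeks were 0 with group as the sole term, 13 on the deposited scale (4 shared with the 7), 3 with no filter, 2 with no variance trend (1 shared), 3 with a fold of at least 2 as well, and, in a setting chosen after seeing the data that leaves 1 dim array at 25 weeks with the spread of the other groups assumed for it, 4 without the poly-A arrays, which is no check of the 7. With the replicate number as a block, although the numbers do not pair the samples, 3 were called (Adam9, Adam1b and Adam3). Leaving out single arrays gave 0 to 6. Median centring, both other pseudocounts, the filter at the 60th percentile (which leaves out the called Adamts9 probe set), array weights and leaving out the dim pair gave 6 or 7. Array weights called 1 of 40 members at 18 weeks (Adam33, -1.37), against 4.02% of all probe sets. Between 25 and 18 weeks array weights called 2 of 40 (Adam1b and Adam25), against 5.72% of all, and the deposited scale 4 of 42, against 6.68%. These counts are not a result about the members. The other alternatives run for these comparisons gave 0. All 21 kept probe sets whose rounded 25-week difference was below 0 were above 0 on the deposited scale, where the median of all was 0.92. Those called on either scale were Adam1b (0.13), Adam3 (0.32), Adam15 (0.07) and Adam6b (1.19), while Adam17, at 0.00 after quantile normalization, was called at 1.05. Another probe set of Adam1b also had the opposite sign (0.41). Other pseudocounts moved Adam9 to 0.8 and 2.02 and Adamts9 to 0.88 and 1.91. Counts over all probe sets at 25 weeks (3999) were 10578 on the deposited scale, 6578 with array weights, 2378 with no variance trend and 2591 with the replicate block, and at 18 weeks (394) they were 134, 1086, 0 and 19. With no filter 7.24% of all probe sets were called at 25 weeks, and with a fold of at least 2 as well 6.43%. The cause of these changes was not tested. Of single-gene values at 25 weeks, 553 of 703 held their direction and side of the threshold, a count that includes genes called in neither fit. Of the 9 fits that leave out a single array, the call held in 7 for Adam9 and Adam1b and 6 for Adam3. It held in 5 for Adam2 and the Adamts9 probe set, 4 for Adam10 and 1 for Adam15.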
